A study of Mus musculus with 4 samples.

Results

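Germ cell fate was followed in mouse ESCs through 10 genes for transcription factors and RNA-binding proteins, chosen by symbol from the 55335 genes of the deposited tables. Of these, 4 are early germ cell specifiers (Prdm1, Prdm14, Tfap2c and Nanos3) and 6 are regulators known mainly from germ cells in the gonad (Dmrt1, Dazl, Stra8, Taf7l, Ctcfl and Sohlh2). Their transcripts were read by RNA-seq in AB2.2, a single mouse ESC line grown on fibroblast feeders, with 2 control libraries and 2 libraries from cells given 50 mM lactate for 24 h. Both groups shared the line, the feeders and a medium with serum, leukemia inhibitory factor and the inhibitors CHIR99021 and PD0325901, and no vehicle is named for the control. The feeders were not stated to have been removed, so their RNA may be part of each library. The labels do not say whether the 2 libraries of a group came from separate cultures, so the p-values measure the spread between these libraries, which may be technical.

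Primordial germ cells, the embryonic founders of eggs and sperm, are set apart from somatic neighbours by a small set of transcription factors, several of which also work in the naive pluripotency network of ESCs. The gonadal regulators come into play later, when germ cells settle in the gonad, enter meiosis and differentiate. In ESCs many genes of the second kind are held low by promoter DNA methylation and by a repressor complex that binds E-box sequences through MAX and MGA.

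Promoter sequences were taken from RefSeq on GRCm38.p6, in a window of 300 bases that begins 250 bases before a gene's start and ends 50 bases after it. Entries were found for 6 of the 10 genes, and Dmrt1, Ctcfl, Prdm14 and Tfap2c had no entry. The sequences of 3 gonadal regulators are shown, since each carries a different feature. A link between these sequences and the RNA values below was not tested. In the Taf7l sequence (chrX:134476441-134476740, minus strand) the capitals mark the E-box CACGTG, in Stra8 (chr6:34920698-34920997, plus strand) the motif AGGTCA, to which retinoic acid receptors and other nuclear receptors bind, and in Dazl (chr17:50293571-50293870, minus strand) every CpG.
Taf7l: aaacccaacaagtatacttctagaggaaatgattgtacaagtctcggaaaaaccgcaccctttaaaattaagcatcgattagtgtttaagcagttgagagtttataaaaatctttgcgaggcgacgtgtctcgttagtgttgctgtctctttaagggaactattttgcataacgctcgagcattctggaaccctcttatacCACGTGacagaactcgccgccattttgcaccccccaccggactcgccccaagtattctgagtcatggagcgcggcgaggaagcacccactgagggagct
Stra8: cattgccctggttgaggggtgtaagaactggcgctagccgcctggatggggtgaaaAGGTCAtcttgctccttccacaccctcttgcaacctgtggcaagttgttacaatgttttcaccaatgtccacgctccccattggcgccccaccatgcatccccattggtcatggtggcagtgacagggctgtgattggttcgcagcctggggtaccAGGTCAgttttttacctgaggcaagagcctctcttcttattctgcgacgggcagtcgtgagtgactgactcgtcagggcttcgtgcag
Dazl: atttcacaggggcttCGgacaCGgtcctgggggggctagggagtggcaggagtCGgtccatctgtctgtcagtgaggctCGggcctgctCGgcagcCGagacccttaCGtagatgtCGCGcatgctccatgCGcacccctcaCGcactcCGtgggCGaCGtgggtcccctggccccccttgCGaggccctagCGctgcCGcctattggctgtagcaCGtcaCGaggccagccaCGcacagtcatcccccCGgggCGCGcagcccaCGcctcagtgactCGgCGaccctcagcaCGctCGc
The E-box CACGTG, which reads the same on both strands, occurred once in the Taf7l window, with its first base 49 bases before the start, and in none of the other 5 windows. It was present in 7.2% of all 32851 promoter windows of the same length. AGGTCA was searched on both strands and occurred 2 times in the Stra8 window, 194 and 38 bases before the start, and in 16.3% of all windows. The E2F core TCCCGC, searched on both strands, was in none of the 6 windows and in 6562 of all windows. None of the matches overlapped another. The RefSeq starts of Stra8, Prdm1, Nanos3, Dazl and Sohlh2 lie inside the GENCODE genes, downstream of their first base. These windows may therefore not be the promoter used in these cells. For Dazl and Sohlh2 the GENCODE first base still falls within the window, and for Stra8, Prdm1 and Nanos3 it lies outside. Dazl had 28 CpGs in its window, a number at or above that of 87.1% of all windows, against 20 for Prdm1, 17 for Taf7l and for Sohlh2, 10 for Stra8 and 3 for Nanos3, with a median of 7 over all windows.

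Counts on genes summed to between 18067562 and 19077885 per library. Mitochondrial genes took 5.48% and 5.72% of these counts in the replicates numbered 1 and 2.43% and 2.82% in those numbered 2, so this share followed the replicate number and not the treatment. The ESC label was checked on 10 pluripotency markers, all of which were expressed in each library, with a summed level of 5669 and 6148 CPM (counts relative to the TMM-scaled library size) in control and 6206 and 6945 in lactate libraries. Markers of feeder fibroblasts were also present, with 11 of 12 above the filter on low counts. Their sums of 406 to 591 CPM in control and 411 to 467 CPM in lactate libraries overlap. Col1a1 was the largest part, with 194 and 294 CPM in control and 199 and 230 CPM in lactate libraries. Single markers moved both ways, 7 higher and 4 lower with lactate, where 51.0% of all genes tested were higher. Their log2 fold changes ran from −0.90 for Col3a1 to 0.63 for Twist2.

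All 10 genes passed the filter on low counts and were tested with edgeR's quasi-likelihood test among 18661 genes, with Benjamini-Hochberg adjustment over all of them. Calls needed both a change over 2-fold and an adjusted p-value under 0.05. Dmrt1 and Taf7l were upregulated upon lactate supplementation by this rule, which makes 2 of the 6 gonadal regulators and 0 of the 4 early specifiers, and 0.552% of all genes tested were upregulated. DESeq2 called Dmrt1, Taf7l and Ctcfl, with 1.14% of all genes upregulated by it. More than 2-fold higher were 3 of the 10 genes, Dmrt1, Taf7l and Ctcfl, against 4.32% of all genes tested. None of the 10 genes was called as downregulated by edgeR or DESeq2, where 0.348% and 0.868% of all genes were, and at an unadjusted p-value under 0.05 only Prdm14 was lower, 1 of 10 genes against 11.4% of all genes tested. In bulk RNA a change in the number of cells with a transcript and a change in its amount per cell cannot be told apart.

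**Figure D1:**
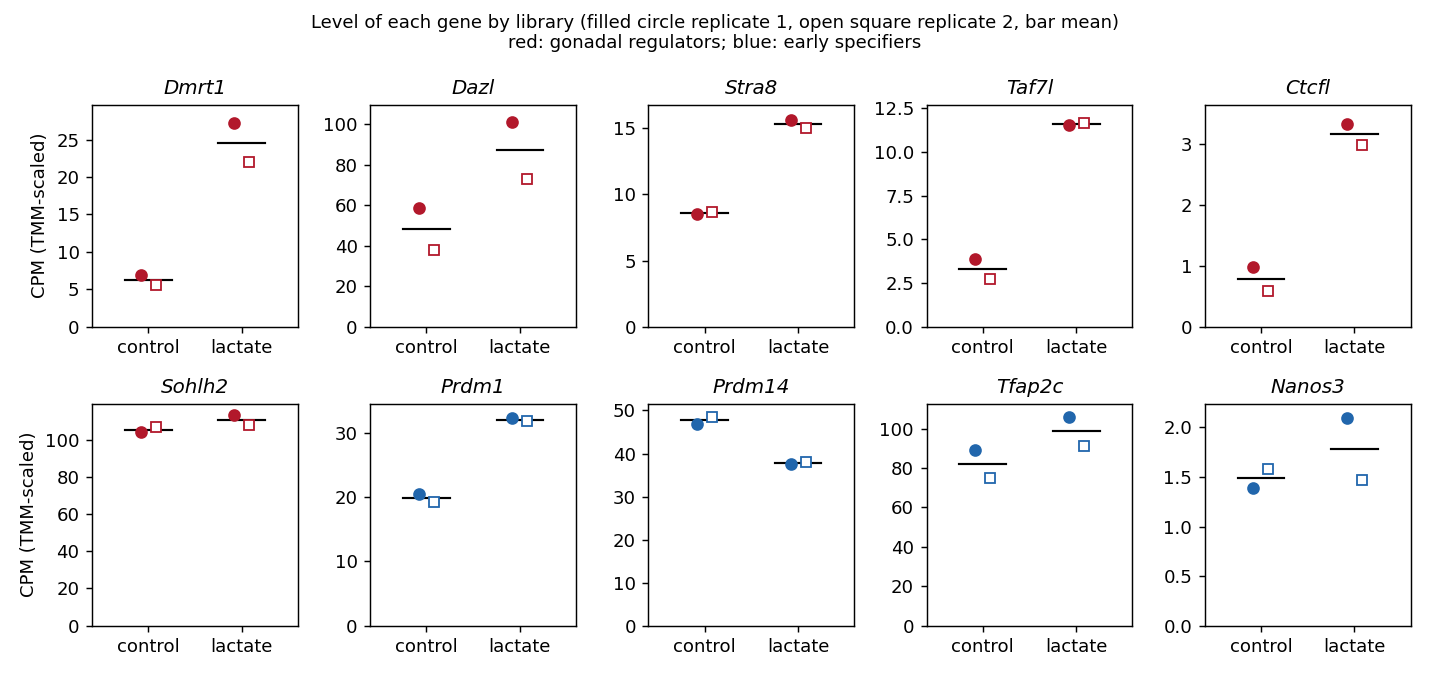
Level of each of the 10 genes in CPM after TMM scaling (y axis, from 0) in control and lactate libraries (x axis), with replicate 1 as a filled circle, replicate 2 as an open square and the mean as a bar. The 2 lactate libraries of Dmrt1 (27.2 and 21.9 CPM) and of Taf7l (11.6 and 11.7 CPM) lie well above their control libraries, Prdm14 is lower with lactate, and the groups overlap for Nanos3.

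Dmrt1 encodes a DM-domain transcription factor that controls the choice between mitosis and meiosis in male germ cells. Its gene lies on chromosome 19 of GRCm38 from 25505618 to 25604329. Control replicates 1 and 2 had 6.88 and 5.53 CPM, from 119 and 105 reads, and lactate replicates 1 and 2 had 27.2 and 21.9 CPM, from 505 and 433 reads. The groups were far apart, since the lower lactate library was 3.19 times the higher control library. Dmrt1 rose 3.96-fold (log2 fold change 1.98, standard error 0.21, adjusted p = 0.0335, edgeR), at or above the change of 99.4% of all genes tested. The call was lost on the expected counts of RSEM (log2 fold change 1.93, adjusted p = 0.0525, edgeR). It was also lost with limma on log2(FPKM + 1) (1.73, adjusted p = 0.206), which called 0 of the 20019 genes it tested. Over 15 alternatives the log2 fold change ranged from 1.73 to 2.13, and the limma value was the largest adjusted p-value.

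Taf7l encodes a germ cell paralog of the TFIID subunit TAF7 and takes part in transcription during sperm development. It lies on the X chromosome from 134460118 to 134476490. The control libraries had 3.87 and 2.74 CPM (67 and 52 reads) and the lactate libraries 11.6 and 11.7 CPM (215 and 230 reads). Both lactate libraries were nearly equal and the lower of them was 2.99 times the higher control library. Taf7l rose 3.52-fold (log2 fold change 1.81, standard error 0.23, adjusted p = 0.0406, edgeR). It too was not called on RSEM expected counts (1.79, adjusted p = 0.0615, edgeR). With limma on log2(FPKM + 1), where no gene was called, it had 1.41 (adjusted p = 0.243). The adjusted p-values ranged from 3.16e-08 to 0.243 over 15 alternatives.

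Ctcfl encodes BORIS, the paralog of the insulator protein CTCF found in testis. The gene lies on chromosome 2 from 173093609 to 173119525. It was the gene with the fewest reads among the gonadal regulators, with 17 and 11 without and 62 and 59 with lactate, or 0.983 and 0.580 against 3.34 and 2.99 CPM. Its groups did not overlap, and the point estimate was the largest of the 10 genes, a log2 fold change of 2.02 with a 95% interval from 1.24 to 2.80. The adjusted p-value of 0.0520 from edgeR missed the threshold, while DESeq2 gave 0.00944 and called it, and the range was 8.04e-06 to 0.243 over 15 alternatives, with a call in 5. On log2(FPKM + 1), a scale that understates changes of low genes, its log2 fold change was 0.62. The antisense gene Ctcflos overlaps an exon of Ctcfl by up to 171 bases, and because use of strand in counting is not stated, reads within this overlap cannot be told apart. Ctcflos itself was counted with 6 and 4 reads in control and 15 and 16 reads in lactate libraries.

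Dazl, on chromosome 17 from 50279395 to 50293636, encodes an RNA-binding protein that lets germ cells proceed to sexual differentiation. Levels were 58.7 and 38.1 CPM in control and 101 and 73.1 CPM in lactate libraries. Both lactate libraries were above both control libraries, but the libraries of a group differed widely, and the lower lactate library was only 1.24 times the higher control library. In both groups replicate 1 was above replicate 2, by 0.63 in log2 CPM in control and 0.47 in lactate. The log2 fold change was 0.85, with a 95% interval from 0.24 to 1.46 (adjusted p = 0.127, edgeR). With a replicate block the log2 fold change was 0.86 (adjusted p = 6.53e-09, edgeR), under 2-fold and so not called. Without lactate replicate 2 it was 1.06 and Dazl was called (adjusted p = 4.90e-04), the only call of Dazl in 15 alternatives, whose adjusted p-values ranged from 6.53e-09 to 0.305. The lactate group is then the higher library alone, which is assumed to vary like the control pair, and calls over all genes went from 103 to 502 upregulated.

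Stra8, on chromosome 6 from 34920163 to 34939344, encodes a protein induced by retinoic acid that starts meiosis. Its 4 libraries were tight, with 8.50 and 8.70 CPM in control and 15.6 and 15.0 CPM in lactate. The lower lactate library was 1.73 times the higher control library, a gap that exceeds the spread within either group. At a log2 fold change of 0.83 (95% interval from 0.43 to 1.23, adjusted p = 0.0640, edgeR) the change was under 2-fold and was not called.

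Sohlh2, on chromosome 3 from 55182028 to 55209957, encodes a bHLH transcription factor of spermatogonia and oocytes. It was the most abundant of the 10 genes and the libraries hardly differed, with 104 and 107 CPM in control and 113 and 108 CPM in lactate. The log2 fold change was 0.07 with a 95% interval from −0.23 to 0.37, which leaves out a 2-fold change in either direction.

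For each of the 6 gonadal regulators the lowest lactate library exceeded the highest control library, for Sohlh2 by only 1.01 times, while 27.0% of all genes tested did so. An unadjusted p-value under 0.05 (edgeR) with a higher level was found for 5 of the 6, all but Sohlh2, against 11.7% of all genes. The median log2 fold change was 1.33, beside 0.01 over all genes tested, and 0.83 beside 0.05 on log2(FPKM + 1). The genes were chosen with earlier results of these data known, so these counts are a description and carry no test of the group.

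Prdm1 encodes BLIMP1, a zinc finger repressor that shuts down somatic genes in the precursors of germ cells. The gene lies on chromosome 10 from 44437177 to 44528501. It had 20.5 and 19.3 CPM in control and 32.3 and 31.8 CPM in lactate libraries. The replicates were close to each other and the lower lactate library was 1.55 times the higher control library. The log2 fold change was 0.69 (95% interval from 0.34 to 1.04, adjusted p = 0.0688, edgeR), so Prdm1 was not called. Prdm1 is also expressed outside the germ line. Among 8 markers of primitive endoderm, the extraembryonic lineage of the blastocyst, the 6 that passed the filter were all higher with lactate. Of all genes tested, 51.0% were higher. None of the 6 was called by edgeR or DESeq2. At an unadjusted p-value under 0.05 (edgeR) 3 were higher, beside 11.7% of all genes tested. The list of 8 markers summed to 132 and 152 CPM in control and 225 and 232 CPM in lactate libraries, most of it from Lama1. No marker was at 0 reads in any library, and the part of this lineage in the Prdm1 value was not tested.

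Prdm14 encodes a zinc finger factor that sustains naive pluripotency in ESCs and is needed in primordial germ cells. It lies on chromosome 1 from 13113457 to 13127163. Control libraries had 46.8 and 48.6 CPM and lactate libraries 37.5 and 38.1 CPM. Prdm14 was the only one of the 10 genes with both lactate libraries below both control libraries, an order seen in 25.9% of all genes tested. The log2 fold change was −0.33 (95% interval from −0.65 to −0.02, unadjusted p = 0.0398, adjusted p = 0.194, edgeR), and it was not called.

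Tfap2c, on chromosome 2 from 172549593 to 172558622, encodes AP-2 gamma, which acts with BLIMP1 in germ cell precursors and also in the trophoblast. It had 89.2 and 74.9 CPM in control and 106 and 91.3 CPM in lactate libraries. The highest control and the lowest lactate library nearly met, and the log2 fold change of 0.26 had a 95% interval from −0.11 to 0.64. A list of 8 trophoblast markers summed to 99.5 and 92.4 CPM in control and 79 and 73 CPM in lactate libraries. Most of this came from Tead4, with 70.3 and 71.6 CPM in control and 57.9 and 55.3 CPM in lactate libraries. Of the 8 markers, 4 passed the filter. Of these 4, 3 were lower with lactate, and DESeq2 called Ascl2 as downregulated (log2 fold change −1.96, adjusted p = 0.0543 in edgeR and 6.87e-04 in DESeq2). Plac1 was at 0 reads in control replicate 1, and Cdx2 and Elf5 did not exceed 8 reads. Whether trophoblast cells were present, and had a part in the Tfap2c value, was not tested.

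Nanos3, on chromosome 8 from 84173731 to 84185217, encodes an RNA-binding protein that keeps migrating primordial germ cells alive. It was close to the limit of the test, with 24 and 30 reads in control and 39 and 29 in lactate libraries, or 1.39 and 1.58 against 2.10 and 1.47 CPM. The groups overlapped, and the log2 fold change was 0.26, with a 95% interval from −0.47 to 0.99 (adjusted p = 0.664, edgeR). Without lactate replicate 1 the direction turned, to −0.04. The count table held 246% of the reads that RSEM assigned to Nanos3 in control and 283% in lactate libraries, the largest gap of the 10 genes, against 111% for Sohlh2 in both groups.

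The 4 early specifiers had a median log2 fold change of 0.26, with 3 of 4 above 0 and values from −0.33 to 0.69, where 51.0% of all genes tested were above 0. Prdm1 and Tfap2c were the specifiers with both lactate libraries above both control libraries, an order seen in 27.0% of all genes tested. For Tfap2c the lower lactate library was only 1.02 times the higher control library. At an unadjusted p-value under 0.05 (edgeR), Prdm1 was higher and Prdm14 lower, 1 specifier each, beside 11.7% and 11.4% of all genes tested. The 6 gonadal regulators ranged from 0.07 to 2.02. By point estimate, Sohlh2 lay within the range of the specifiers and the other 5 lay above it, from 0.83 upwards. The 95% intervals of Dazl (0.24 to 1.46) and Stra8 (0.43 to 1.23) overlapped that of Prdm1 (0.34 to 1.04). Those of Dmrt1, Taf7l and Ctcfl lay above it.

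**Figure D2:**
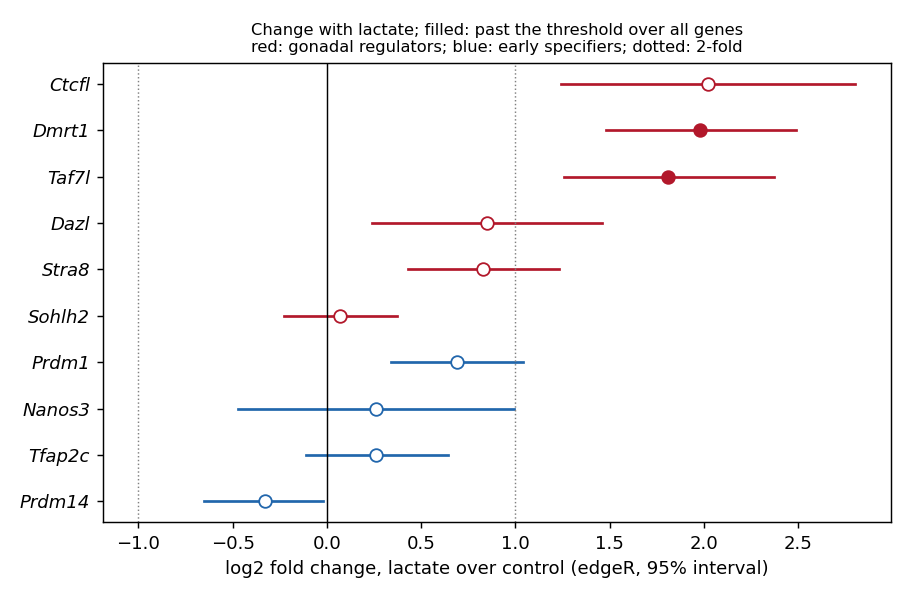
Log2 fold change of lactate over control (x axis, edgeR, points with 95% intervals) for the 6 gonadal regulators in red and the 4 early specifiers in blue, with filled points for genes called over all genes tested. Dmrt1 and Taf7l are filled at 1.98 and 1.81, Ctcfl has the widest interval, from 1.24 to 2.80, and the intervals of Sohlh2, Nanos3 and Tfap2c cross 0.

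Levels per length were compared as TPM from RSEM, which divides by transcript length. In control libraries Sohlh2 came first with 71.5 ± 3.14 TPM (SD, n = 2), ahead of Tfap2c with 35.1 ± 2.23, Dazl with 30.5 ± 5.64 and Prdm14 with 26.4 ± 1.80. Stra8 had 12.2 ± 1.25 TPM, Prdm1 6.02 ± 0.438, Dmrt1 4.21 ± 0.898, Taf7l 2.93 ± 1.11, Nanos3 2.33 ± 0.375 and Ctcfl 0.255 ± 0.035. The control ranges of Tfap2c and Dazl overlapped, as did those of Dazl and Prdm14, of Dmrt1 and Taf7l, and of Taf7l and Nanos3, so the order within these pairs is not set by the data. The gonadal regulators Sohlh2 and Dazl each had at least 26.5 TPM in both control libraries.

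With lactate, Sohlh2 stayed first at 78.7 ± 4.57 TPM, and Dazl took the second place at 58.8 ± 13.3, with both of its libraries above those of Tfap2c at 43.8 ± 3.63. Dmrt1 reached 17.1 ± 2.90 TPM and passed Prdm1, which had 10.8 ± 0.841. Stra8 at 21.7 ± 2.74 and Prdm14 at 22.6 ± 0.75 overlapped, as did Prdm1 and Taf7l at 9.86 ± 0.806. Ctcfl stayed last at 1.12 ± 0.071 TPM. The TPM of the 6 gonadal regulators summed to 125.7 and 117.5 in control and 204.6 and 170.0 in lactate libraries, and that of the 4 specifiers to 70.2 and 69.5 against 84.2 and 75.5. Specifiers thus held 35.8% and 37.2% of the summed TPM of the 10 genes in control and 29.1% and 30.8% in lactate libraries, and the groups do not overlap. Such sums weigh abundant genes most. Dazl alone, which was not called, had 34.5 and 26.5 TPM in control and 68.2 and 49.3 TPM in lactate libraries. Groups without overlap were frequent, since in CPM both lactate libraries were above both controls in 27.0% of all genes tested and below in 25.9%.

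**Figure D3:**
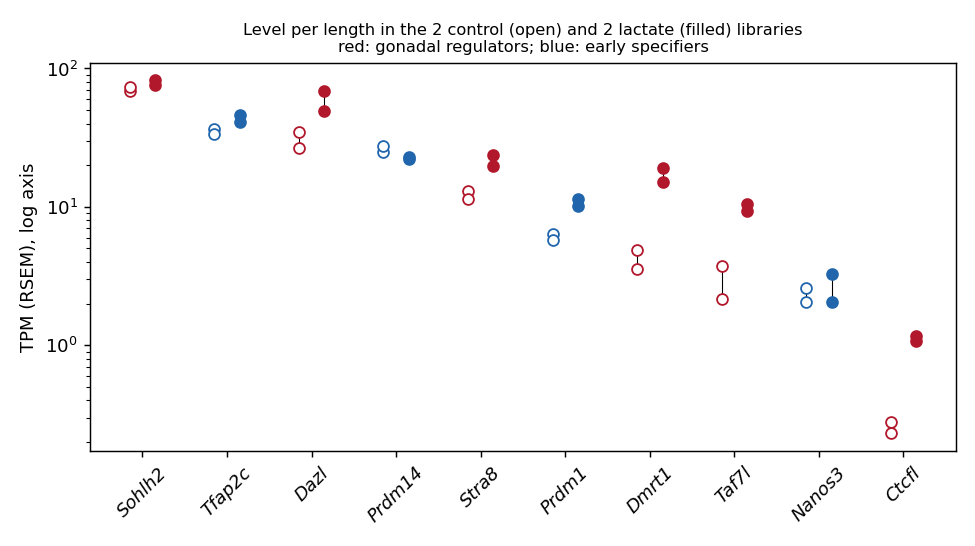
TPM from RSEM (y axis, log scale) for the 10 genes ordered by control mean (x axis), with open points for the 2 control and filled points for the 2 lactate libraries, gonadal regulators in red and early specifiers in blue. Levels span from 0.255 TPM for Ctcfl to 71.5 TPM for Sohlh2 in control, and the gap between open and filled points is widest for Dmrt1, Taf7l and Ctcfl.

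Paralogs of the 10 genes were examined for the same families. Of 32 paralogs, 19 passed the filter, 13 were higher and 6 lower, with a median log2 fold change of 0.21. None was called by edgeR or DESeq2. At an unadjusted p-value under 0.05, 3 were higher and 3 lower, where 11.7% and 11.4% of all genes tested were. Taf7, the ubiquitous counterpart of Taf7l, had 173 CPM in control and 107 CPM in lactate means, with a log2 fold change at −0.69 (SE 0.22, adjusted p = 0.138, edgeR). Taf7l2, a further gene of this family, had 7 and 5 reads in control and 21 and 26 in lactate libraries, a log2 fold change of 1.87 (adjusted p = 0.0678, edgeR). Reads shared between Taf7l and its relatives may have been left out or split in counting. Ctcf had a log2 fold change of 0.06, and Boll, a relative of Dazl, of 0.96 on at most 37 reads per library. In the Dmrt family, Dmrt3, Dmrta2 and Dmrtc2 had log2 fold changes of 0.25, 0.11 and 0.48 and Dmrtb1 of −0.43, each within 2 standard errors of 0, and the remaining 4 members fell below the filter. Nanos1 had −0.10, Prdm10 −0.44, and Sohlh1 was below the filter.

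Other genes of germ cell specification were read from a list of 23, among them the BMP signal, its SMAD mediators and partners of the specifiers. Of the 20 that passed the filter, 14 were higher and 6 lower, with a median of 0.11. None was called by edgeR and DESeq2 called Dnd1 as downregulated. At an unadjusted p-value under 0.05, 5 were higher and 3 lower, beside 11.7% and 11.4% of all genes tested. Dppa3, which guards maternal DNA methylation in the zygote, had 71 and 37 reads in control and 142 and 90 in lactate libraries (log2 fold change 1.02, adjusted p = 0.210, edgeR). Otx2, a factor that restrains entry to the germ line, had a log2 fold change of 0.68 (adjusted p = 0.0814). Dnd1, an RNA-binding partner of NANOS proteins, had 128 and 230 reads against 54 and 111 (log2 fold change −1.19, adjusted p = 0.140), and Ifitm3, a surface protein of early germ cells that is also induced by interferon, had −0.78 (adjusted p = 0.0808).

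A list of 26 further genes of gonadal germ cells had 21 above the filter, of which 16 were higher and 5 lower, with a median of 0.31. None was called by edgeR or DESeq2, and 7 were higher and 0 lower at an unadjusted p-value under 0.05. Of all genes tested, 11.7% were higher and 11.4% lower at that threshold. Tex101, a germ cell surface protein, had 13 and 6 reads in control and 24 and 29 in lactate libraries, a log2 fold change of 1.38 (adjusted p = 0.137, edgeR). Gm4969, which encodes the STRA8 partner MEIOSIN, had 9 and 3 against 15 and 14 reads, a log2 fold change of 1.17 (adjusted p = 0.261). Zbtb16 and Dmrtb1 were lowest, with −0.68 and −0.43.

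Retinoic acid is the signal to which Stra8 owes its name, and 20 genes of its receptors, enzymes, carriers and direct targets were examined beside it. Of the 17 above the filter, 5 were higher and 12 lower, with a median of −0.13, none called by edgeR or DESeq2, and 1 higher and 4 lower at an unadjusted p-value under 0.05, where 11.7% of all genes were higher and 11.4% lower. On log2(FPKM + 1) the median was 0.03. These 4 were the receptors Rarg and Rara, the carrier Crabp2 and the retinal reductase Dhrs3, with log2 fold changes of −0.78, −0.67, −1.05 and −1.27. The smallest adjusted p-value among them was 0.0580 for Rarg (edgeR). Aldh1a2, which makes retinoic acid, had 0.92 (adjusted p = 0.107, edgeR). Stra8 was higher in the same lactate libraries, and whether its value is tied to those of this list was not tested.

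The 21 listed repressors of germline genes, which are mostly subunits of the MAX and MGA complex or part of the DNA methylation machinery, all passed the filter. Of these, 9 were higher and 12 lower, with a median of −0.15, none was called by edgeR or DESeq2, and 2 were higher and 4 lower at an unadjusted p-value under 0.05, beside 11.7% and 11.4% of all genes. Max had 86.4 CPM in control and 60.8 CPM in lactate means (log2 fold change −0.51, standard error 0.18, adjusted p = 0.161, edgeR), and Dnmt3b, a de novo DNA methyltransferase, had −0.59 (adjusted p = 0.0688). At the other end were Yaf2 with 0.54 and Rybp with 0.41, which share a place in the complex.

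**Figure D4:**
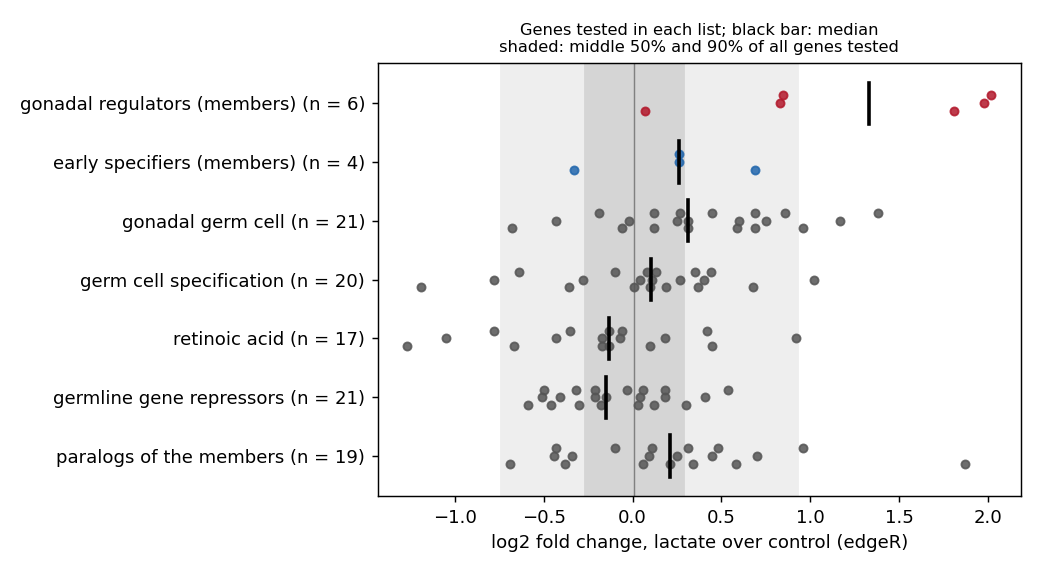
Log2 fold change of lactate over control (x axis, edgeR) of the tested genes in the 2 groups of regulators and in the 5 further lists, with the median as a black bar and the middle 50% and 90% of all genes tested shaded, from −0.27 to 0.29 and from −0.74 to 0.93. The gonadal regulators have a median of 1.33, while the medians of the other lists lie between −0.15 and 0.31.

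Genes with the most similar profile were sought by the Euclidean distance between log2 CPM values centred on each gene's mean, over the 4 libraries and 16570 genes with a mean above 1 CPM. Nearest to Dmrt1 were Brd3os, Arl14ep, Gm43314, Usp17la and Pdha2, at distances from 0.039 to 0.198. Arl14ep was the most abundant of these, with 39.6 CPM in control and 142 CPM in lactate means and a log2 fold change of 1.84. Nearest to Dazl were Mettl5os, C2cd6, 2610037D02Rik, Gm45838 and Gm24853, at 0.054 to 0.087, each with fewer than 5 CPM in either mean. Among the nearest to Prdm14 were Adnp2, Ice1, Ippk and Hat1, at 0.017 to 0.026, with log2 fold changes from −0.35 to −0.32. With 4 libraries many genes share a profile by their treatment and replicate values alone, so the likeness is a description.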

How the data were processed

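RNA-seq of 2 control and 2 lactate libraries was analysed. The authors trimmed reads with cutadapt 1.16, mapped them with STAR to mm10 and deposited raw counts per gene, made in exons of GENCODE M23, without normalization. For each library they also deposited expected counts, TPM and FPKM from RSEM. The strand setting was not given in the sources used here. Counts on the 1153 families of transposable elements were not used. Positions are from GENCODE M21 on GRCm38, and promoters from RefSeq.

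Counts were tested in R 4.3.3 with edgeR 4.0.16 (filterByExpr, TMM, quasi-likelihood in its legacy form, no covariates). The common biological coefficient of variation was 15.9%. The standard error is the log2 fold change divided by the square root of F, and means and SDs are over 2 libraries. Alternatives used DESeq2 1.42.0, limma 3.58.1 on log2(FPKM + 1), other filters and scalings, expected counts rounded to whole numbers, and each library left out. The tests were tried on simulated data. An exact permutation test of 2 against 2 cannot go below p = 0.333 and was not used.

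The 10 genes and the lists were chosen with earlier results of these data known. Named from the lists were genes called, the 2 highest and 2 lowest tested genes of each, and tested relatives of Taf7l, Ctcfl, Dazl, Sohlh2, Nanos3 and Dmrt1. Of the genes this rule and the profile search name, 2 are not reported here. Beyond this rule, Rarg, Rara and the marker genes were named after their values were seen. For markers of primed pluripotency, 5 of 6 genes were tested, 2 higher and 3 lower, and their list summed to 185 and 171 CPM in control and 143 and 142 CPM in lactate libraries.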

Additional observations from a re-analysis of the deposited data

How the results depend on the processing

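Over 15 alternatives, the log2 fold changes of the 10 genes kept their direction in 149 of 150 values. The exception was Nanos3, at −0.04 without lactate replicate 1 and at most 0.49, without lactate replicate 2. Dmrt1 and Taf7l were called in 12 of the 15 alternatives each, with log2 fold changes from 1.73 to 2.13 and from 1.41 to 2.06, and lost the call on RSEM expected counts and with limma on log2(FPKM + 1) and log2(FPKM + 0.1). The number of the 10 genes called up was therefore 0 under these 3 settings. The lowest and highest number with a library left out was 2 and 4, the latter without lactate replicate 2. Over all genes, 103 were up and 65 down. DESeq2 gave 213 and 162, no filter on low counts 482 and 325, RSEM expected counts 27 and 17, and limma 0 and 0 with either pseudocount. Leaving out each library gave 45 to 502 up and 39 to 367 down (45 and 39 without control replicate 1, 167 and 148 without control replicate 2, 372 and 270 without lactate replicate 1, 502 and 367 without lactate replicate 2). Library totals alone gave 108 up and 40 down, so that 73.0% of calls were up against 61.3%, and the median of all genes moved to 0.08. The median of the 6 gonadal regulators was 1.33, and 0.83 with limma on log2(FPKM + 1), which also moved the wider gonadal list from 0.31 to 0.17, the paralogs from 0.21 to 0.10 and the retinoic acid list from −0.13 to 0.03. The gonadal list was at 0.48 without the filter and the repressors went from −0.15 to −0.08 with totals alone. With a library left out, a group of 1 library is assumed to vary like the other group. Leaving out mitochondrial genes, chosen after seeing the data, gave 102 and 75. The cause of these shifts was not tested.

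The replicates share a number between groups but the labels do not say that it marks a culture or day. Same-numbered libraries deviated from their group means together, with a correlation of 0.561 across genes. A replicate block raised the calls to 761 up and 395 down and called Ctcfl beside Dmrt1 and Taf7l. Few reads limit Nanos3 and Ctcfl.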

Other observations

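Genes of the gonadal list below the filter on low counts were near the limit of detection in both groups. Sohlh1 had 0 and 2 reads in control and 0 and 8 in lactate libraries, Lhx8 had 3 and 3 against 6 and 7, Nobox had 2 and 5 against 7 and 3, Figla had 0 and 1 against 1 and 2, and Nanos2 had 0 and 0 against 0 and 2. The partner of SOHLH2 in oocytes and spermatogonia was thus nearly absent from libraries in which Sohlh2 was the most abundant of the 10 regulators. Among the Dmrt paralogs below the filter, Dmrtc1b had 2 reads in each control and 8 in each lactate library, and Dmrt2 had 7 and 7 against 9 and 8. These genes were named after their values were seen.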
